A study of Solanum tuberosum with 9 samples.

Results

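The potato gene VPE2 encodes a protease of the plant vacuole known as a vacuolar processing enzyme. It is 1 of 25702 genes counted in 9 RNA-seq libraries made from Kexin 13 potato stolons. Stolons are side shoots that grow below ground and form the tubers at their tips. The libraries form 3 groups of 3, named AN0 for plants short of nitrogen, AN1 for plants with a conventional supply and AN2 for plants with an excess, and all are from the same variety and tissue. The labels give no plant age, sampling time or nitrogen dose, and do not say whether the libraries of a group came from separate plants. The gene was taken by its symbol, with its values in these libraries already known, and in particular its difference between AN0 and AN1. Its levels and differences are therefore given as a description, with no p-value.

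Vacuolar processing enzymes are cysteine proteases of the legumain family, whose members cut proteins after asparagine residues. They are made as inactive precursors and become active in the acid vacuole, where they convert other vacuolar proteins, seed storage proteins among them, into their mature forms. In tobacco and Arabidopsis they are also known for an activity resembling that of animal caspases and for a part in forms of cell death in which the vacuole breaks down. VPE2 was the only counted gene whose symbol or synonym names such an enzyme, and its RefSeq entry lists VPE1 as a synonym. Other legumain genes, if known by a locus number alone, were not analysed here. How the counting treated reads shared with similar genes is not given in the sources used here, so part of the VPE2 count could belong to a close copy.

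VPE2 transcripts stood highest under nitrogen deficiency, lowest under conventional supply and between them under excess. Levels are given in CPM, counts scaled to a fixed library total, after adjusting the libraries to each other with TMM factors (trimmed mean of M-values, which assumes that most genes do not differ). Under deficiency VPE2 stood at 80.1 CPM in AN0-1, 74.7 CPM in AN0-2 and 52.96 CPM in AN0-3. Under conventional supply it stood at 13.6 CPM in AN1-1, 15.4 CPM in AN1-2 and 17.6 CPM in AN1-3. Under excess it stood at 25.3 CPM in AN2-1, 18.8 CPM in AN2-2 and 28.2 CPM in AN2-3. No AN0 library came near the others, whereas AN2-2 lay close to the AN1 libraries. The group means were 69.3 ± 14.4 CPM in AN0, 15.5 ± 1.98 CPM in AN1 and 24.1 ± 4.78 CPM in AN2 (SD, n = 3 each).

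**Figure D1:**
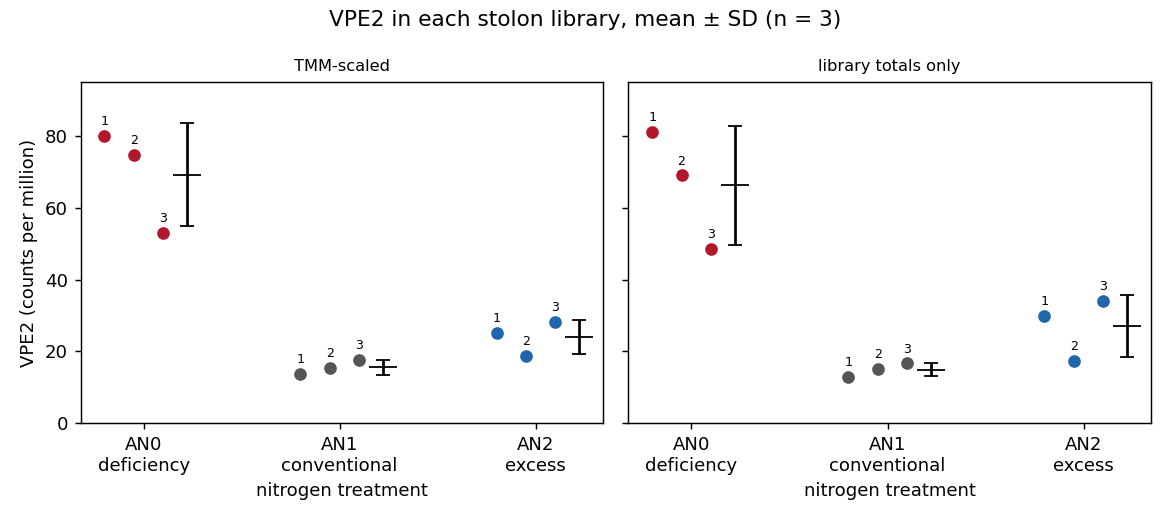
VPE2 in CPM (linear axis from 0) in each of the 9 libraries, by nitrogen treatment, with TMM scaling on the left and scaling to library totals alone on the right. Points are libraries with their replicate number, and bars are the mean ± SD of 3 libraries. The 3 AN0 libraries lie between 52.96 and 80.1 CPM on the left, and the AN1 and AN2 libraries between 13.6 and 28.2 CPM.

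These levels rested on deep counts. The raw counts of VPE2 were 2891, 2605 and 1776 in the AN0 libraries, in the order of their numbers. They were 415, 487 and 636 in the AN1 libraries and 1035, 607 and 1056 in the AN2 libraries. The library totals lay between 30952622 and 38235348 counts. Counting error alone was 1.86% of the value at the highest VPE2 count and 4.91% at the lowest. The spread between libraries was larger, with a coefficient of variation of 20.8% in AN0, 12.7% in AN1 and 19.8% in AN2.

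In VPE2 the deficiency group differed from the conventional group by far more than its own spread. The log2 fold change of AN0 over AN1, from the edgeR fit, was 2.16 ± 0.24 (SE), a ratio of 4.46. The means were 53.7 CPM apart, and the larger of both SDs was 14.4 CPM. The lowest AN0 library held 3.01 times the level of the highest AN1 library. Among the 21223 genes tested, 9.54% had all AN0 libraries above all AN1 libraries, and VPE2 was chosen knowing that it is one of them. A larger absolute fold change in this comparison was found for 2.87% of the genes tested.

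Excess against deficiency also left a clear space between the groups. The log2 fold change of AN2 over AN0 was -1.52 ± 0.24 (SE), so that the mean of AN2 was 0.348 of that of AN0. The lowest AN0 library, AN0-3, held 1.88 times the level of the highest AN2 library, AN2-3, with an interval of 1.74 to 2.03 (exact binomial, 95%, counting error only). All AN2 libraries lay below all AN0 libraries for VPE2 and for 10.0% of the genes tested. This comparison shares its AN0 libraries with the one above, so the values are not separate evidence.

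Excess and conventional supply were much closer to each other. The log2 fold change of AN2 over AN1 was 0.63 ± 0.23 (SE), a ratio of 1.55, and the means were 8.55 CPM apart, beside an SD of 4.78 CPM in AN2. All AN2 libraries lay above all AN1 libraries, as they did for 13.3% of the genes tested. The nearest libraries of these groups were hardly apart. AN2-2 held 1.07 times the level of AN1-3, with an interval of 0.957 to 1.20 that includes equality (exact binomial, 95%, counting error only), so these libraries were not distinguishable at this depth. Between these 2 neighbours in the order of means, the separation of VPE2 thus rested on AN2-1 and AN2-3.

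Both VPE2 comparisons with the excess group moved with the scaling, while that of AN0 with AN1 hardly did. The TMM factors of AN2-1 and AN2-3 were 1.18 and 1.21, above the range of 0.917 to 1.01 in the other 7 libraries. Scaled to library totals alone, VPE2 stood at 29.8 CPM in AN2-1, 17.3 CPM in AN2-2 and 34.1 CPM in AN2-3. Against an AN1 mean of 14.9 ± 1.87 CPM, that scale gave an AN2 mean of 27.1 ± 8.71 CPM (SD, n = 3 each), a ratio of 1.82. On that scale the median log2 fold change of all genes tested was 0.22 for AN2 over AN1 and 0.22 for AN2 over AN0, against 0.02 and 0.01 with TMM. The VPE2 value for AN2 over AN1 there was 0.86, so that 0.65 remained above the median of all genes, beside 0.62 with TMM. The mean of AN2 was 0.408 of that of AN0 on library totals, beside 0.348 with TMM. Relative to the median of all genes, the VPE2 value for AN2 over AN0 was -1.51 on library totals and -1.53 with TMM. The space between these groups was also narrower on library totals. There AN0-3 held 1.42 times the level of AN2-3 (1.32 to 1.54, exact binomial, 95%, counting error only), beside 1.88 with TMM. The ratio of AN0 to AN1 was 4.45 on library totals and 4.46 with TMM.

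Per length, VPE2 lay near the middle of the expressed genes under conventional supply and in their upper part under deficiency. The deposited FPKM, fragments scaled for gene length and library total, correspond to a length of 1930 bases for VPE2. On this scale the AN0 libraries had 42.1, 35.8 and 25.1 FPKM of VPE2, in the order of their numbers. The AN1 libraries had 6.69, 7.85 and 8.62 FPKM, and the AN2 libraries 15.4, 8.98 and 17.7 FPKM. In the AN0 libraries between 82.0% and 88.5% of the genes with a value above 0 had a lower FPKM than VPE2. That share was between 55.3% and 61.3% in the AN1 libraries and between 62.6% and 70.9% in the AN2 libraries.

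VPE2 varied between libraries of 1 treatment about as much as other genes of its abundance. Its within-group SD on the log2 CPM scale was 0.27. The median over the 6124 genes within 2-fold of its mean level was 0.34, and 36.6% of them had a smaller SD than VPE2. Its biological coefficient of variation in the edgeR fit was 0.244, beside a common value of 0.417 over all genes tested.

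The order of all 9 VPE2 libraries, with every AN0 library above every AN2 library and every AN2 library above every AN1 library, was found for 24 of the genes tested, or 0.113%. The group means alone had this order for 14.0% of them. Of the 24 genes, 2 have a name other than a locus number, VPE2 itself and SPP2, a sucrose-phosphate phosphatase of sucrose synthesis that is named here after its values were seen. The differences in SPP2 were small, with 61.96 ± 6.45 CPM in AN0, 54.3 ± 1.76 CPM in AN2 and 45.8 ± 2.07 CPM in AN1 (SD, n = 3). VPE2 was chosen on its values, so its place among these genes is a description.

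The libraries of a treatment differed in their green-tissue and storage transcripts, and VPE2 was highest within each treatment in the library with the most green-tissue transcripts. The summed level of 6 green-tissue genes for photosystem proteins, a chlorophyll-binding protein and the small subunit of Rubisco was 739 CPM in AN0-1 and 547 CPM in AN2-3. It was between 9.98 and 90.5 CPM in the other 7 libraries. In AN0 the sum ran in the same order as VPE2, from AN0-1 over 90.5 CPM in AN0-2 to 22.8 CPM in AN0-3. In AN1 it was 60.04 CPM in AN1-3, the library with the most VPE2, and 9.98 and 10.9 CPM in AN1-1 and AN1-2. In AN2 it was 72.1 CPM in AN2-1 and 73.5 CPM in AN2-2, in the reverse order of VPE2 between these libraries. That order is the order of the photosystem gene PSBR, at 60.4 and 69.8 CPM, whereas the photosystem genes PSBO (LOC102577592), at 9.69 and 3.48 CPM, and psbP (LOC102603839), at 1.85 and 0.22 CPM, were in the order of VPE2. The chlorophyll-binding gene cab1 (LOC102596966) was at 0 in 4 of the 9 libraries and at 243 CPM in AN0-1, and the other 5 green-tissue genes were all detected in AN0-1 and AN2-3. Of transcripts known from stolons and tubers, BEL5, a regulator of tuber formation, was present in every library, at 71.98 to 241 CPM. GA2OX1, the other such marker, was uneven, from 0.19 CPM in AN2-3 and 1.81 CPM in AN0-2 to 35.4 CPM in AN1-3.

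The summed storage transcripts ran the other way in 2 of the 3 groups. The summed level of patatin, a storage protein that fills the tuber, and 5 tuber protease inhibitors was 8489 CPM in AN0-1, 37517 CPM in AN0-2 and 46527 CPM in AN0-3. In AN2 it was 13550 CPM in AN2-1, 46715 CPM in AN2-2 and 1558 CPM in AN2-3. In both groups the library with the most VPE2 had the least storage transcripts and the library with the least VPE2 the most. Not every member followed the sum: the inhibitor PIN-II (LOC102577839) stood at 649 CPM in AN2-1, 479.5 CPM in AN2-2 and 841 CPM in AN2-3, in the same order as VPE2. In AN1 the order of the sum was the same as that of VPE2, with 32302, 35496 and 41784 CPM across the AN1 libraries. In bulk tissue, fewer cells of a type and less RNA per cell cannot be told apart. The part of these transcripts' sources in the VPE2 differences was not tested. Without AN0-1 and AN2-3 together the VPE2 log2 fold change was 2.04 for AN0 over AN1, 0.52 for AN2 over AN1 and -1.52 for AN2 over AN0. The libraries richest in storage transcripts of each group, AN0-3, AN1-3 and AN2-2, held 52.96, 17.6 and 18.8 CPM of VPE2.

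**Figure D2:**
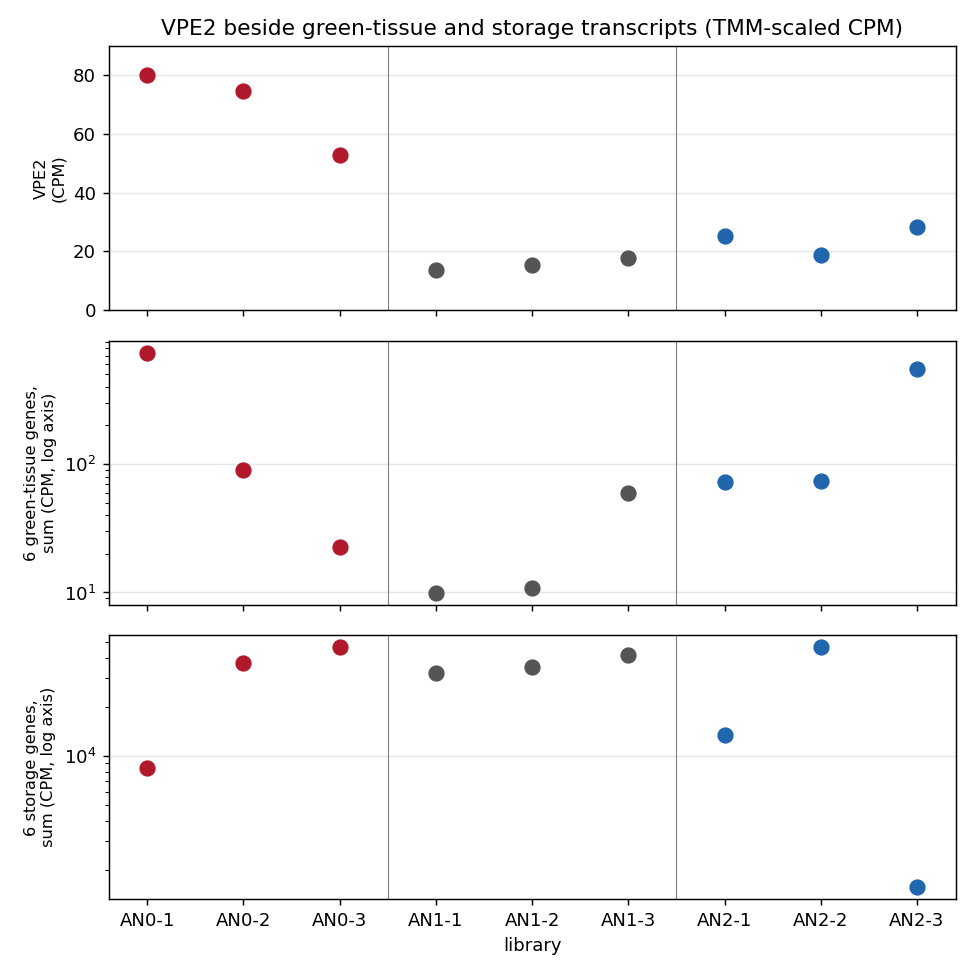
VPE2 (top, linear axis), the sum of 6 green-tissue genes (middle, log axis) and the sum of 6 storage genes (bottom, log axis), all in TMM-scaled CPM, for each of the 9 libraries, coloured by treatment. AN0-1 and AN2-3 have the highest green-tissue sums, 739 and 547 CPM, and the lowest storage sums, 8489 and 1558 CPM, and each has the highest VPE2 level of its treatment.

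Genes with a pattern most like that of VPE2 were ranked over the 9 libraries. The measure was the root mean square (RMS) difference between log2 CPM values centred on each gene's mean, for the 14362 genes averaging 5 CPM or more. The median over these genes was 0.995. The ranking is a description, as all genes share the same libraries and groups and VPE2 was chosen for its pattern. The nearest gene was LOC102589057, with an RMS difference of 0.234. It stood at 136.9 ± 28.2 CPM in AN0, 27.2 ± 7.72 CPM in AN1 and 38.1 ± 5.14 CPM in AN2 (SD, n = 3). These means had a similar order and size of steps at about a doubled level. Unlike those of VPE2, its AN1 and AN2 libraries overlapped, with AN1-2 at 34.6 CPM and AN2-2 at 33.2 CPM. The next were LOC102590518 (RMS difference 0.301), LOC102598210 (0.303), LOC102605482 (0.321) and LOC102590322 (0.322). These genes are known by locus number only in the table used here.

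The 390 ranked genes with a name lay further from VPE2. The closest was HPL, a hydroperoxide lyase that splits lipid hydroperoxides into volatile aldehydes, with an RMS difference of 0.381 and rank 13 among all genes. HPL stood at 25.01 ± 2.26 CPM in AN0, 8.82 ± 1.28 CPM in AN1 and 8.05 ± 0.70 CPM in AN2 (SD, n = 3). It shared the high deficiency level of VPE2 but had its lowest mean under excess. The HPL libraries of AN1 and AN2 overlapped, with a log2 fold change of AN2 over AN1 of -0.13 ± 0.20 (SE, edgeR adjusted p = 0.87). The next named genes were THF1, whose Arabidopsis counterpart acts in thylakoid formation (RMS difference 0.470), the cytochrome P450 gene CYP71D4 (LOC102603857, 0.485), a chitinase with the synonym ChtA1 (LOC102577835, 0.505) and D11 (LOC102577810, 0.531). For THF1 the mean was 21.8 CPM in AN0, 8.35 CPM in AN1 and 14.6 CPM in AN2. Its AN2 mean rested on AN2-3, at 23.4 CPM, beside 7.48 CPM in AN2-2.

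**Figure D3:**
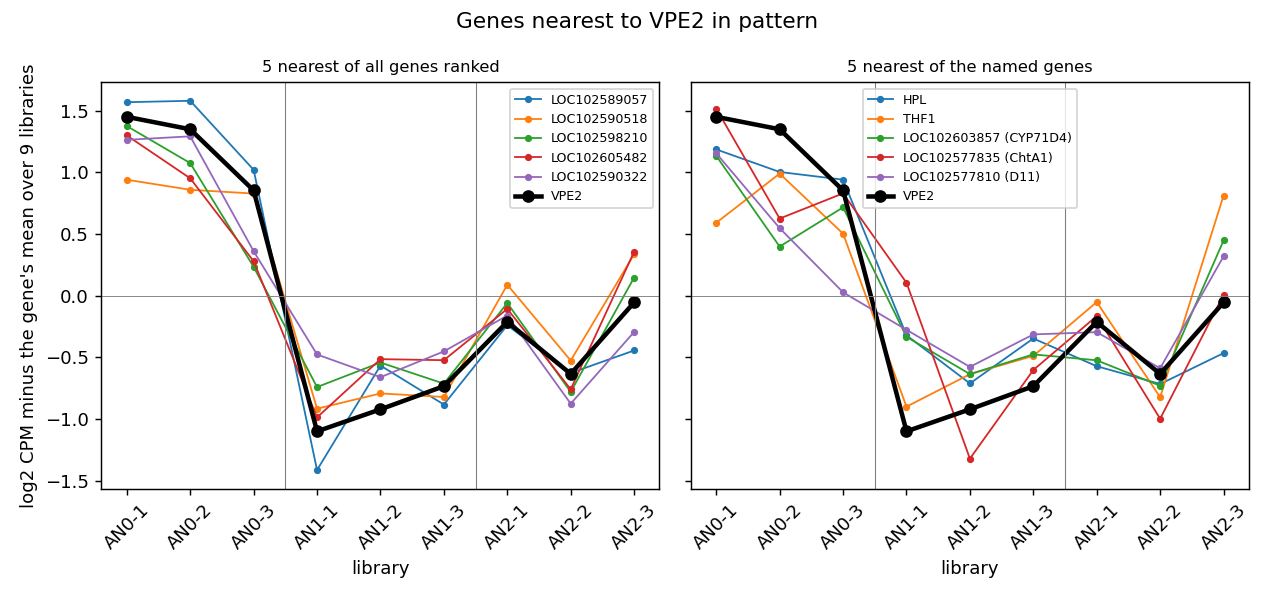
Log2 CPM minus each gene's mean over the 9 libraries, for VPE2 (thick black line) and the 5 genes with the smallest RMS difference from it among all 14362 genes ranked (left) and among the 390 named genes (right). Lines only connect the libraries of 1 gene. All 10 genes are highest in the AN0 libraries on average, and the nearest, LOC102589057, follows VPE2 with an RMS difference of 0.234.

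Genes for other proteases, their inhibitors, protein turnover and cell death gave no call by edgeR with all 9 libraries in any of the comparisons. The symbols and synonyms gave 15 such genes, of which 14 were tested. With edgeR's quasi-likelihood test, adjusted over all genes, 0 of the 14 were called in AN0 against AN1, beside 0.0471% of all genes. The unadjusted p was under 0.05 for 3 of the 14, beside 10.8% of all genes. For AN2 against AN1 edgeR called 0, beside 0.697% of all genes, and the unadjusted p was under 0.05 for 1, beside 13.8%. For AN2 against AN0 it again called 0, beside 3.65% of all genes, and the unadjusted p was under 0.05 for 1, beside 20.4%. DESeq2 called 1, 0 and 1 of the 14 in these comparisons, beside 3.22%, 6.05% and 13.2% of all genes. Limma voom with quality weights called 2, 6 and 3 of them, beside 4.84%, 24.8% and 27.7% of all genes. Limma-trend on log2(FPKM + 1) called 0 in each, beside 0.0565%, 1.93% and 5.74%. The median log2 fold change of the 14 was -0.10 for AN0 over AN1, -0.28 for AN2 over AN1 and -0.14 for AN2 over AN0, beside medians of 0.02, 0.02 and 0.01 over all genes tested.

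Among the proteases, RCR3 was hardly present. It encodes a papain-like cysteine protease known from tomato as a secreted target of pathogen inhibitors. It had 3 counts in AN0-1, 1 in AN0-3 and 1 in AN2-3, and 0 counts in the other 6 libraries, where a count of 0 allows up to 3. The leucine aminopeptidase LAP (LOC102595887), which removes amino acids from the ends of proteins, had a lower mean in AN0 than in AN1 without passing the test. Its means were 92.1 ± 9.67 CPM in AN1 and 31.4 ± 17.9 CPM in AN0 (SD, n = 3). The log2 fold change of AN0 over AN1 was -1.55 ± 0.78 (SE), with an adjusted p of 0.516 by edgeR.

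The protease inhibitors had higher group means than VPE2, and some were uneven between libraries. The most abundant was PSPI-21 (LOC102577642), a serine protease inhibitor of the Kunitz type, with a mean of 7321 FPKM over the 9 libraries. Its level ran from 19.5 CPM in AN2-3 to 12984 CPM in AN0-3. PCPI (LOC102577909), an inhibitor of cysteine proteases, stood at 4166 ± 2703 CPM in AN0, 4823 ± 1999 CPM in AN1 and 2190 ± 3512 CPM in AN2 (SD, n = 3). Its log2 fold changes were -0.21 ± 1.26 for AN0 over AN1 (SE, edgeR adjusted p = 0.982) and -1.14 ± 1.28 for AN2 over AN1 (0.803). The value for AN2 over AN1 rested on AN2-2, where PCPI stood at 6245 CPM, within the AN1 range of 2833 to 6832 CPM. That for AN0 over AN1 was -0.21 without AN2-2. PCPI is among the summed storage genes, and leaving out AN2-2 (sum 46715 CPM) keeps only the storage-poor AN2-1 (13550 CPM) and AN2-3 (1558 CPM). The part of this in the PCPI difference was not tested. Without AN2-2 edgeR called PCPI lower in AN2 than in AN1, with a log2 fold change of -4.90 ± 0.87 (SE, adjusted p = 0.0387). It was also called lower than in AN0, with -4.68 ± 0.86 (0.0251). Limma voom with quality weights, on all 9 libraries, gave -4.39 ± 0.78 (SE, adjusted p = 0.00429) and -4.33 ± 1.01 (0.0133). These inhibitors belong to multigene families, so the values of single members are uncertain.

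Of the 8 genes for protein turnover and cell death, the most abundant was the ubiquitin fusion gene ubi3 (LOC102577606), with a mean of 630.2 FPKM and a log2 fold change of -0.13 ± 0.44 for AN0 over AN1 (SE, edgeR adjusted p = 0.965). A RAD23-like gene (LOC102577665), of the proteins that carry ubiquitinated proteins to the proteasome, came closest to a call. It stood at 192 ± 14.4 CPM in AN0, 132 ± 1.39 CPM in AN1 and 113 ± 5.96 CPM in AN2 (SD, n = 3). Its log2 fold change was 0.54 ± 0.18 for AN0 over AN1 (SE, edgeR adjusted p = 0.331) and -0.76 ± 0.18 for AN2 over AN0 (0.0541). Both passed with DESeq2, with adjusted p of 0.0109 and 5.66e-06, and with limma voom with quality weights, with 0.0415 and 0.00316. StRPT4a (LOC102589500), of the same list, went the other way in AN0 over AN1, with -0.57 ± 0.24 (SE, edgeR adjusted p = 0.436). Limma voom with quality weights gave it -0.66, with an adjusted p of 0.0403. The tobacco hypersensitive-response marker hsr203J (LOC102603079) was low, at 10.9 ± 5.06 CPM in AN0, 4.59 ± 1.35 CPM in AN1 and 11.3 ± 6.19 CPM in AN2. For AN2 over AN1 its log2 fold change was 1.29 ± 0.50 (SE, edgeR adjusted p = 0.284). Limma voom with quality weights gave 1.23 (adjusted p = 0.0103). For AN2 over AN1 voom called 2 of the 14 list genes higher, hsr203J and PIN-II, and 4 lower, beside 24.8% of all genes called. The lower ones were PCPI, PSPI-21, a cathepsin D inhibitor (LOC102604256) and ZEN1. The autophagy gene atg6 (LOC102603263) averaged 42.5, 40.9 and 38.8 CPM in AN0, AN1 and AN2, and LSD1, which restrains cell death in Arabidopsis, at 28.7, 24.8 and 29.7 CPM.

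**Figure D4:**
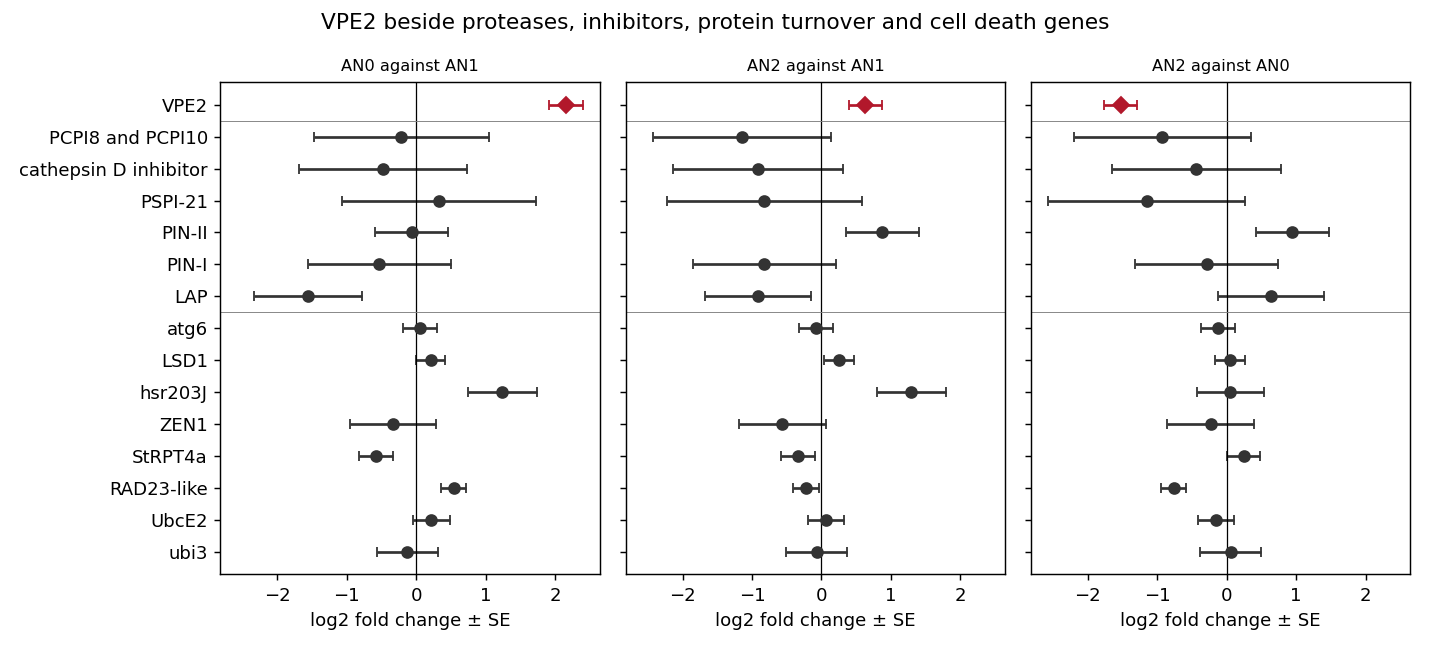
Log2 fold change ± SE from the edgeR fit for VPE2 (red diamond, top row) and the 14 tested genes for proteases and inhibitors (upper block) and for protein turnover and cell death (lower block), in the 3 comparisons. VPE2 stands at 2.16, 0.63 and -1.52, and no p-value is given for it. With all 9 libraries edgeR called 0 of the 14 other genes in any comparison, beside 0.0471%, 0.697% and 3.65% of all genes.

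In AN0, AN1 and AN2 the means of nitrate reductase NR3 were 19.6 ± 6.15, 2.34 ± 0.67 and 0.84 ± 0.61 CPM, and those of nitrite reductase NIR 8.01 ± 4.86, 0.65 ± 0.43 and 0.51 ± 0.16 CPM (SD, n = 3). Both had their highest mean under deficiency, as VPE2 did. NR3 and NIR were taken as genes known from earlier results of these data to differ between the nitrogen groups. Their p-values are therefore not independent support. By edgeR the AN0 against AN1 difference did not pass, with an adjusted p of 0.134 for each. DESeq2 called both genes, with adjusted p of 1.5e-05 for NR3 and 1.3e-05 for NIR, beside 3.22% of all genes. So did limma voom with quality weights, with 0.00297 and 0.00792, beside 4.84% of all genes. For AN2 against AN0 the adjusted p by edgeR was 0.00965 for NR3 and 0.0244 for NIR. The NIR call was lost with the replicate block (edgeR adjusted p = 0.0681) and with only the 2 groups compared (0.0501). It was also lost when AN0-1, AN0-2, AN2-1 or AN2-3 was left out. Their means under excess lay below those under conventional supply, but these differences did not pass the test, with log2 fold changes of AN2 over AN1 of -1.48 ± 0.56 (SE) for NR3 and -0.32 ± 0.67 for NIR, and adjusted p of 0.279 and 0.917 by edgeR. The NIR libraries of AN1 and AN2 overlapped, while those of NR3 did not. Limma voom with quality weights called NR3 lower in AN2 than in AN1, with -1.21 (adjusted p = 0.047), beside 24.8% of all genes called.

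**Figure D5:**
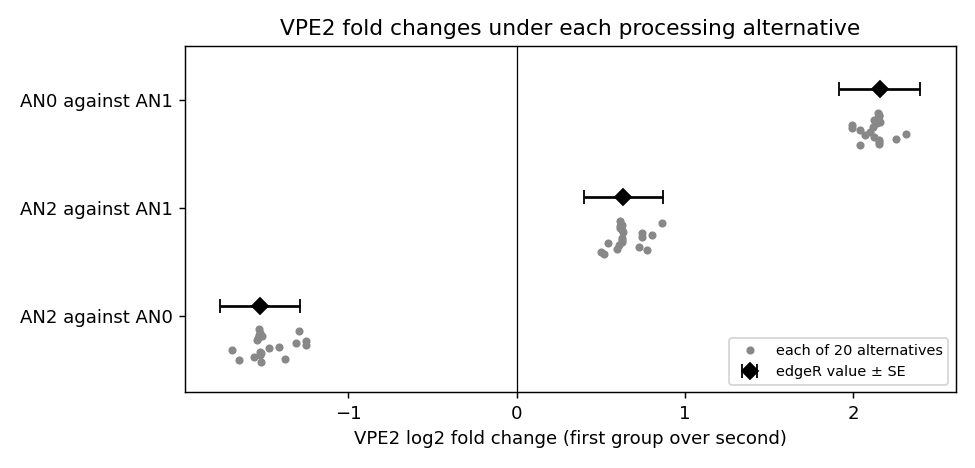
Log2 fold change of VPE2 in the 3 comparisons, with the edgeR value ± SE (black diamonds) and the value under each of 20 processing alternatives (grey points, spread vertically for visibility). The alternatives span 2.00 to 2.32 for AN0 over AN1, 0.50 to 0.86 for AN2 over AN1 and -1.69 to -1.25 for AN2 over AN0, and no value changes sign.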

How the data were processed

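Per the labels' protocols, TRIzol was used to extract total RNA and the VAHTS Universal V6 kit to build the libraries. DESeq2, fastp, HISAT2, HTSeq and R 3.2.0 appear in the submitters' processing notes, with no role stated. The sources used here give neither build nor annotation nor strand setting, so no coordinates are printed. The deposited table of raw read counts per gene was used for the main fit, and the deposited FPKM table for levels per length and for alternatives. Gene names came from RefSeq (assembly SolTub_3.0), where 25672 of 25702 IDs matched. No sequences are shown.

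All 9 libraries entered 1 edgeR 4.0.16 quasi-likelihood fit (R 4.3.3, TMM, filterByExpr, robust, no covariate), which tested 21223 genes. Calls are Benjamini-Hochberg adjusted p under 0.05. The SE of an edgeR log2 fold change is its absolute value divided by the square root of the quasi-likelihood F statistic. P-values measure the spread between these libraries only, which may be technical. Log2 CPM used a prior count of 2. DESeq2 1.42.0, limma 3.58.1 (voom, and limma-trend on log2 FPKM with pseudocounts of 1 and 0.1) and left-out libraries were alternatives.

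VPE2 and the gene lists were chosen with earlier results of these data known. Protein motifs had been planned for filling the lists. Symbols and synonyms were used instead, and 12 of the 15 protease, turnover and cell death genes were added from them after the files were read. Genes named are VPE2, the most abundant member of each list and members called in an alternative. Also named are the 5 nearest genes in pattern overall and among named genes, markers, and NR3, NIR and HPL. NR3, NIR and HPL were taken as genes known from earlier results to differ between the nitrogen groups. LAP, RCR3, PCPI, the cathepsin D inhibitor, RAD23-like, StRPT4a, hsr203J, ZEN1, atg6, LSD1 and SPP2 were named after their values were seen. Same-numbered libraries did not deviate together.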

Additional observations from a re-analysis of the deposited data

How the results depend on the processing

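The VPE2 log2 fold changes kept their sign in all 20 alternatives of each comparison and moved by less than the SD within groups. They ran from 2.04 to 2.32 for AN0 over AN1, 0.50 to 0.78 for AN2 over AN1 and -1.69 to -1.38 for AN2 over AN0 with single libraries left out. With the replicate block they were 2.16, 0.62 and -1.53. No pairing by number was seen: deviations of same-numbered libraries correlated between -0.47 and 0.083 (9 pairs). Deviations from means of only 3 libraries cannot exclude a pairing.

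The counts of called genes, which are the background of the lists, moved far more. The cause was not tested. For AN0 against AN1 the count of 10 became 0 with library totals, the replicate block, only the 2 groups, log2(FPKM + 0.1) and without AN0-1 and AN2-3 together, 2 with unfiltered FPKM, 679 with DESeq2, 1027 with voom, and 0 to 109 with single libraries left out. For AN2 against AN1 the count of 148 became 5 with the replicate block, 45 with only the 2 groups, 15 without AN0-1 and AN2-3 together, 410, 322 and 317 with FPKM plus 1, plus 0.1 and unfiltered, 1275 with DESeq2, 5260 with voom, and 0 to 367 with single libraries left out. For AN2 against AN0 the count of 774 became 166 with the replicate block, 119 with only the 2 groups, 296 without AN0-1 and AN2-3 together, 1219 and 1237 with FPKM plus 1 and plus 0.1, 2784 with DESeq2, 5882 with voom, and 110 to 1077 with single libraries left out. Of the 14 list genes, 0 were called in each comparison. DESeq2 called 1 in AN0 against AN1 and 1 in AN2 against AN0, voom 2, 6 and 3, and single left-out libraries gave 0, 0 to 1 and 0 to 1. Ranked by Pearson correlation instead, 2 of the 5 nearest genes were shared. The share of VPE2 in its family and the family's identity threshold were not run, as no protein sequences were used here.
Of 1979 values of other named genes under alternatives, 67 became calls, 38 calls were lost and 0 called values reversed.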
